A study of Mus musculus with 21 samples.

Results

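The genes described here are 10 genes of major histocompatibility complex (MHC) class I antigen presentation in the mouse, namely H2-K1, H2-D1, B2m, Tap1, Tap2, Tapbp, Psmb8, Psmb9, Psmb10 and Nlrc5. They were chosen by symbol, with earlier results of these data known, and all 10 were found among the 24447 genes that the 3 count tables have in common. RNA was sequenced from 21 mouse fibroblast cultures in 7 groups of 3. Mouse embryonic fibroblasts (MEFs), labelled C57BL/6, came as WT (WT_MEF), as the germline mutant 129S-Prrx1tm1Jfm/Mmmh (KI_MEF) and with a guide RNA against Prrx1 (SG_MEF). They were taken from embryos at E10 to 13, and the mutant line had been crossed back to C57BL/6. Wound healing fibroblasts, also C57BL/6, were taken from dorsal wounds of mice at day 10 and were WT (WT_Wound) or carried the Prrx1 guide (SG_Wound). Cancer-associated fibroblasts from breast tumours of MMTV-PyMT mice, strain FVB/NJ, were likewise WT (WT_MMTV) or carried the guide (SG_MMTV). The guide was delivered with Cas9 and cuts the first exon of Prrx1, and sgNS, a control guide, is named as the WT control of guide-treated cells. Whether the WT_MEF cultures, which serve both SG_MEF and KI_MEF, carried sgNS is not given in the sources used here. All 7 groups had been immortalised with a construct spelled HPV E6/E and grown in DMEM with 10% serum. The labels do not say whether the 3 cultures of a group came from separate animals, cultures or clones, so p-values measure only the spread between these samples, which may be technical.

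MHC class I molecules show peptides from inside the cell to CD8+ T cells. A heavy chain, such as the products of H2-K1 and H2-D1, pairs with β2-microglobulin, the product of B2m, and is loaded in the endoplasmic reticulum with peptides that the TAP1/TAP2 transporter brings in, held near the transporter by tapasin, the product of Tapbp. Many of these peptides are cut by the immunoproteasome, in which PSMB8, PSMB9 and PSMB10 stand in for the constitutive subunits PSMB5, PSMB6 and PSMB7, and NLRC5 is the transactivator that drives transcription of the class I genes together with RFX factors. Interferon signalling, in part through IRF1, raises most of these genes, and fibroblasts carry class I at a resting level that interferon increases.

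In GRCm38.p6, the build that corresponds to the mm10 used for the counts, 7 of the 10 genes lie on chromosome 17 within the H2 complex. These are Tapbp (chr17:33919478-33929290), H2-K1 (chr17:33996012-34000619), Psmb9 (chr17:34182030-34187330), Tap1 (chr17:34187556-34197225), Psmb8 (chr17:34198195-34201454), Tap2 (chr17:34204479-34216321) and H2-D1 (chr17:35263094-35267497). B2m (chr2:122147687-122153082), Psmb10 (chr8:105935728-105938392) and Nlrc5 (chr8:94434335-94527272) lie elsewhere. Promoter windows from RefSeq matched 8 of the 10 genes. The stretches printed here are from the genes that share a regulatory layout or a promoter, and each lies upstream of a transcript start used for these windows. For H2-K1 that start lies within the interval given for the gene, and so does the stretch. Capitals mark 5 motifs searched on both strands. These are the interferon regulatory factor core AANNGAAA, the enhancer A sequence GGGGATTCCC, the X2-like TGACGC, the Y box ATTGG and the palindrome TTCNNNGAA.
H2-K1 (chr17:34000335-34000468, minus strand): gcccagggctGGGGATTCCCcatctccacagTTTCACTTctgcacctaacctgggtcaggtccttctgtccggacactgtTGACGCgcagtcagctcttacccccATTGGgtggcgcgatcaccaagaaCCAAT
H2-D1 (chr17:35262913-35263045, plus strand): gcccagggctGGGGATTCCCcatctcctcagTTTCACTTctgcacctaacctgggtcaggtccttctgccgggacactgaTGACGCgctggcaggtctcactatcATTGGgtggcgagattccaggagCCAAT
B2m (chr2:122147540-122147638, plus strand): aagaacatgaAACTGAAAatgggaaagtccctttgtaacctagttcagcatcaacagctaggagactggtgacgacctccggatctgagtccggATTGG
Tap1-Psmb9 (chr17:34187331-34187555, plus strand): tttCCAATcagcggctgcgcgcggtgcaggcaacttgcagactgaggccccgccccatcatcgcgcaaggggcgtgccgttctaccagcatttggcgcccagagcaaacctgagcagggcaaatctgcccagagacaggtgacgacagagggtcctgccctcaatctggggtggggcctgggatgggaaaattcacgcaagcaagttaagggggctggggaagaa

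The H2-K1 and H2-D1 stretches had the same motifs in the same order, and over the 100 bases from enhancer A to the first Y box 89 were identical. Enhancer A was found in the windows of those 2 genes among the 8 matched and in 0.107% of all 32851 promoter windows. Its letters were read from the H2-K1 window, so that match was fixed in advance. The match in H2-D1 restates the likeness of the 2 stretches. The TGACGC motif was in the same 2 windows and in 7.4% of all, and the AANNGAAA core was in 3 windows (H2-K1, H2-D1 and B2m) and in 23.9% of all. The Y box was in 6 of the 8 windows and in 37.4% of all. The TTCNNNGAA motif was in the Psmb8 window and in 8.3% of all. Tap1 and Psmb9 are read in opposite directions from the 225 bases printed, so they share 1 promoter region and its single Y box. These matches describe letters in a window and not bound sites.

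Prrx1 itself was the check of the labels. Its level is given in CPM, the counts scaled to a common library size, computed over all 21 libraries with edgeR's TMM factors, which is the unit of every level below unless another is named. Prrx1 was at 190, 165 and 182 CPM in the WT MEF cultures, at 26.1, 20.5 and 19.6 in KI_MEF and at 126, 95.1 and 140 in SG_MEF. It was at 142 to 152 CPM in WT_Wound against 64.5 to 65.6 in SG_Wound, and at 635 to 644 in WT_MMTV against 301 to 310 in SG_MMTV. All Prrx1-loss cultures thus lay below their WT cultures, but SG_MEF kept 67.4% of the WT mean, and a cut of the gene need not lower its RNA. Library totals ran from 69588655 to 134790440 counts, and whether the counts had been corrected for batch before deposit is not given in the sources used here. The fibroblast marker list (10 genes) summed to 12562 to 12878 CPM in WT_MEF, 5676 to 6854 in KI_MEF, 9888 to 11674 in SG_MEF, 9503 to 9565 in WT_Wound, 3629 to 3683 in SG_Wound, 33562 to 34378 in WT_MMTV and 16924 to 17036 in SG_MMTV. Lum was at 0 in KI_MEF and SG_Wound. Within the list, 8 genes fell and 2 rose in SG_MMTV, where 41.9% of all genes fell and 41.2% rose. Dcn rose to a mean of 590 CPM from 32.8 and Pdgfra to 1840 from 951, while Thy1 fell to 0.643 from 58.1. Of 10 leukocyte markers, Adgre1, Cd3e and Itgax were at 0 in all 21 cultures, and the list summed to 7.15 to 8.13 CPM in WT_MMTV, 0.962 to 1.05 in SG_MMTV and 2.89 to 5.52 in the other groups. Of 5 endothelial markers, Kdr alone made the sum of the wound cultures high, at a mean of 290 CPM in WT_Wound and 143 in SG_Wound, with Pecam1 at 0. Epithelial markers (6 genes) summed to 13.6 CPM or less in every culture. The part of these shifts in the class I values was not tested, and in bulk RNA fewer cells of a type and less RNA per cell cannot be told apart.

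The 10 genes together made up 0.111 to 0.113% of all counts in WT_Wound, 0.156 to 0.177% in WT_MEF and 0.24 to 0.244% in WT_MMTV. The share was 0.0842 to 0.0874% in KI_MEF and 0.169 to 0.17% in SG_MEF. In SG_Wound it was 0.106 to 0.107%, and in SG_MMTV 0.368 to 0.377%. KI_MEF thus had the lowest share and SG_MMTV the highest of the 7 groups.

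**Figure D1:**
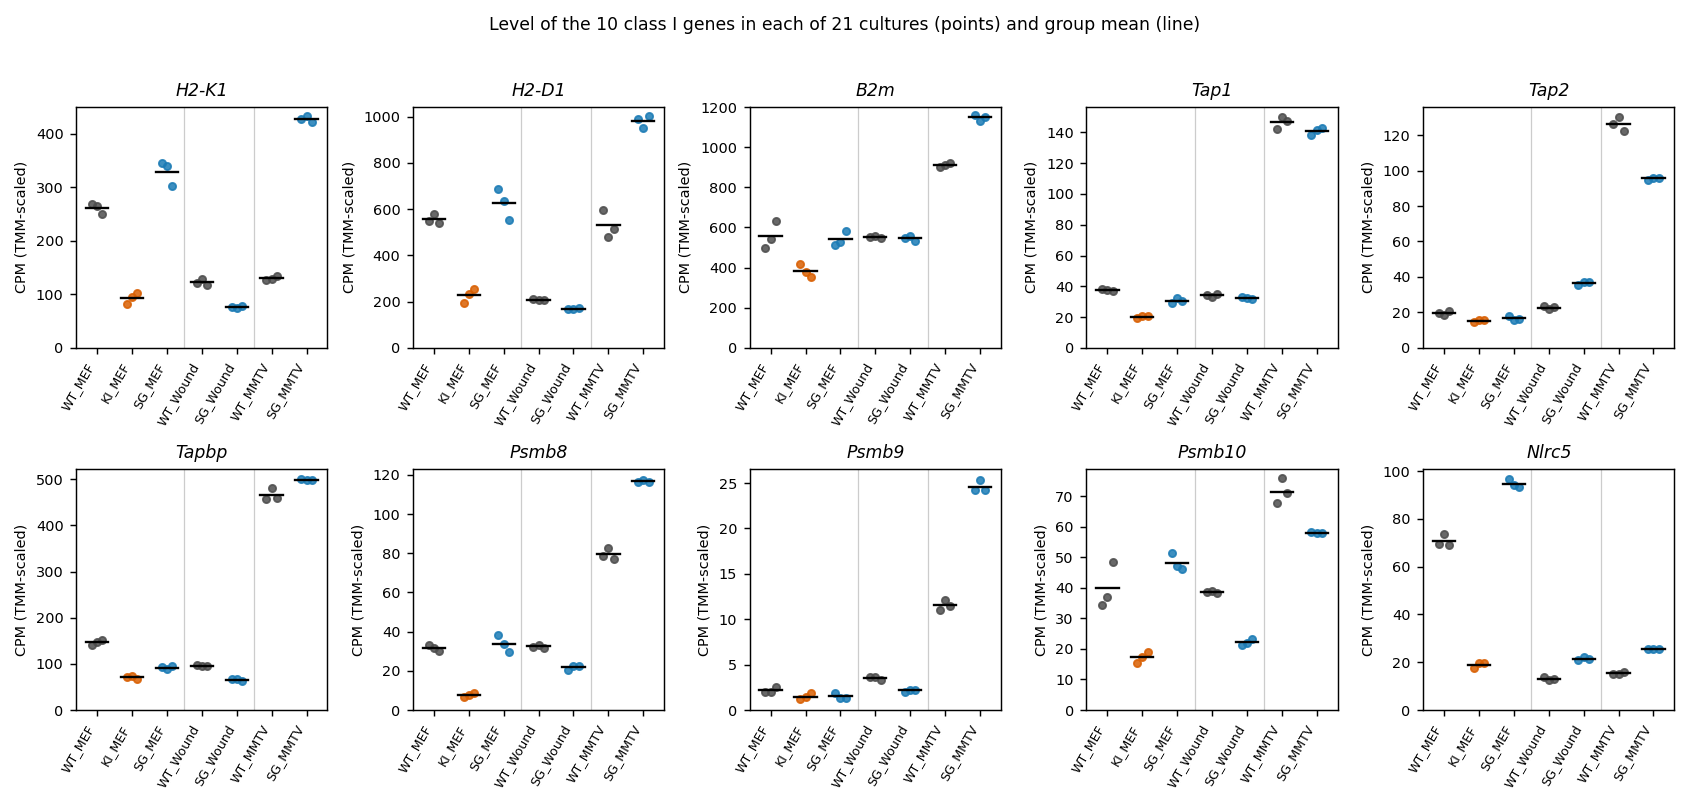
Level of each of the 10 class I genes in CPM (vertical axis, linear, from 0) in the 21 cultures, drawn as points by group along the horizontal axis with the mean of 3 as a line. WT groups are grey, the germline mutant orange and sgPrrx1 groups blue, and the SG_MMTV points are the highest of all for H2-K1, H2-D1, B2m, Tapbp, Psmb8 and Psmb9, while for Nlrc5 the SG_MEF points are the highest.

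Per kb of its longest coding transcript (FPKM), B2m was the most abundant member in each WT group, at 648 ± 81.0 (SD, n = 3) in WT_MEF, 642 ± 6.70 in WT_Wound and 1059 ± 11 in WT_MMTV. H2-D1 followed at 265, 99.1 and 252 FPKM. H2-K1 was at 163, 76.1 and 81.1, below Tapbp (161) in WT_MMTV. The transporter subunits were lower than both heavy chains in each group, with Tap1 at 12.8, 11.6 and 49.6 FPKM and Tap2 at 5.73, 6.59 and 36.7, in the same order of groups. Psmb9 was the lowest of the 9 genes with a coding transcript in that annotation, at 1.62, 2.61 and 8.54 FPKM. For Nlrc5 no level per length is given, since the reference annotation at hand lists it without a coding transcript.

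Between the WT groups, most members were higher in the tumour fibroblasts than in either of the other 2 types. In WT_MMTV against WT_MEF, 7 members were higher, 2 lower and 1 did not pass the test (adjusted p under 0.05 by edgeR's quasi-likelihood test over all genes), where 76.1% of all genes passed (40.6% higher and 35.5% lower). Tap2 (log2 fold change 2.64 ± 0.06, SE), Psmb9 (2.36 ± 0.14), Tap1 (1.92 ± 0.04) and Tapbp (1.63 ± 0.04) were the highest, while H2-K1 (-1.04 ± 0.07) and Nlrc5 (-2.24 ± 0.05) were lower. Genes of peptide transport and loading were thus high in the same cultures in which the H2-K1 count and the transactivator were low. Against WT_Wound, where 76.8% of all genes passed (40% higher and 36.8% lower), 9 members were higher in WT_MMTV and H2-K1 did not pass (0.07 ± 0.07). The smallest of the 9, that of Nlrc5 (0.20 ± 0.05), did not pass without WT_Wound replicate 2 (0.10). In WT_Wound against WT_MEF, where 77.4% passed (38.7% in each direction), 5 were lower, among them H2-D1 (-1.43 ± 0.10), H2-K1 (-1.11 ± 0.07) and Nlrc5 (-2.44 ± 0.06), 2 were higher and 3 did not pass. At least 2-fold differences were found for 7, 6 and 3 members in these 3 comparisons, against 34%, 36.8% and 38.5% of all genes. WT_MMTV differed from the others in strain as well as in tissue, and the 2 cannot be told apart.

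The order of the 7 groups differed among the members. For Tap1, the 5 C57BL/6 groups lay between 20.2 and 37.7 CPM and the FVB/NJ groups at 141 and 147, and the means of the lowest and highest group differed 7.25-fold. The span was 16.9-fold for Psmb9, 15.3-fold for Psmb8, 8.36-fold for Tap2, 7.63-fold for Tapbp, 7.2-fold for Nlrc5, 5.77-fold for H2-D1, 5.6-fold for H2-K1, 4.14-fold for Psmb10 and 2.98-fold for B2m. Of the neighbours in these orders, the cultures of SG_MEF, SG_Wound, WT_Wound and WT_MEF overlapped in a chain for B2m (means 541 to 557 CPM), and WT_MMTV, WT_MEF and SG_MEF did so for H2-D1 (530 to 626). WT_MEF, WT_Wound and SG_MEF overlapped in the same way for Psmb8 (31.8 to 33.8) and, in another order, for Psmb10 (38.7 to 48.2). WT_Wound and WT_MMTV overlapped for H2-K1, WT_Wound and KI_MEF for H2-D1, SG_MEF and SG_Wound as well as SG_MMTV and WT_MMTV for Tap1, and KI_MEF and SG_MEF as well as SG_Wound and WT_MEF for Psmb9. No neighbouring groups overlapped for Tap2, Tapbp or Nlrc5.

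In MEFs with the germline Prrx1 mutation, the whole class I set was lower. All 10 members fell against WT_MEF, where 59.9% of all 13616 genes tested changed, 30.5% lower and 29.4% higher. For 6 members the fall was at least 2-fold, as was the change of 24.1% of all genes. The median log2 fold change of the members was -1.15, against 0.01 over all genes tested. The cultures of the 2 groups did not overlap for any of the 10 genes, as was the case for 68.2% of all genes.

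Both classical heavy chains, which hold the peptide, fell. H2-K1 was at 268, 265 and 249 CPM in WT_MEF and at 81.6, 95.6 and 103 in KI_MEF, a log2 fold change of -1.51 ± 0.10 (SE; 35.8% of the WT mean). H2-D1 was at 549, 581 and 540 CPM against 194, 233 and 256, a change of -1.32 ± 0.11. Each KI_MEF culture lay below each WT culture for both genes, by a wide gap. B2m, the shared light chain, was at 495, 543 and 633 CPM against 420, 379 and 355 (-0.56 ± 0.12), a smaller log2 change than that of either heavy chain. Nlrc5, the transactivator, went from 69.3, 73.5 and 69.1 CPM to 17.4, 19.7 and 19.6 (-1.93 ± 0.08).

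Of the loading genes, Tapbp fell from 140 to 153 CPM to 67.1 to 73.7 (-1.07 ± 0.08), Tap1 from 37.2 to 38.4 CPM to 19.5 to 20.7 (-0.93 ± 0.08) and Tap2 from 18.5 to 20.9 CPM to 14.4 to 15.5 (-0.41 ± 0.09). Among the immunoproteasome subunits, Psmb8 had the largest change of the 10 genes, from 33.2, 31.8 and 30.3 CPM to 6.46, 7.56 and 8.9 (-2.08 ± 0.13). Psmb10 went from 34.2, 37.1 and 48.4 CPM to 15.5, 17.3 and 19.1 (-1.24 ± 0.15). Psmb9 was at 2.03, 1.99 and 2.54 CPM against 1.16, 1.39 and 1.82, with 90 to 223 counts in a culture, and its fall of 0.62 on the log2 scale was near the threshold (adjusted p = 0.0418, edgeR). That call was lost without filtering and when any 1 of 5 cultures was left out, with adjusted p values from edgeR between 0.0512 and 0.121.

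The guide against Prrx1 in the same cell type gave a different picture. In SG_MEF against WT_MEF, 3 members fell, 2 rose and 5 did not pass, where 43.1% of all genes changed (22.8% fell and 20.3% rose) and 10.6% changed at least 2-fold, as no member did. The median log2 fold change of the members was -0.01 against 0.00 over all genes. The cultures of the groups overlapped for H2-D1, B2m, Psmb8 and Psmb10, and 56.9% of all genes showed no overlap. KI_MEF and SG_MEF were compared with the same 3 WT cultures.

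Tapbp was the member with the largest change in SG_MEF, at 92.2, 88.6 and 94.5 CPM against 140, 148 and 153 (-0.71 ± 0.07), and each SG_MEF culture lay below each WT culture. Tap1 (-0.33 ± 0.07) and Tap2 (-0.26 ± 0.08; adjusted p = 0.045 by edgeR) also fell, so that the 3 peptide-loading genes moved down. Nlrc5 rose to 96.7, 94 and 93.4 CPM from 69.3, 73.5 and 69.1 (0.39 ± 0.06), and H2-K1 to 346, 339 and 302 from 268, 265 and 249 (0.30 ± 0.07). The values for the members that did not pass were 0.14 ± 0.09 for H2-D1, -0.07 ± 0.10 for B2m, 0.06 ± 0.10 for Psmb8, -0.54 ± 0.20 for Psmb9 and 0.24 ± 0.13 for Psmb10. The calls of H2-K1 and Tap2 were lost when some single libraries were left out. Without SG_MEF replicate 2 (0.29 and -0.21) or without WT_MEF replicate 2 (0.31 and -0.30) neither passed, and 3 members passed in place of 5. Fewer of all genes passed in these runs as well, 28.1% and 28.2% in place of 43.1%. Tap2 also did not pass without SG_MEF replicate 3 (-0.24), WT_MEF replicate 1 (-0.25) or WT_MEF replicate 3 (-0.22). Without WT_MEF replicate 3, in which Psmb10 was at 48.4 CPM against 34.2 and 37.1 in the other 2, the rise of Psmb10 passed (0.40), and without SG_MEF replicate 1 the fall of Psmb9 did (-0.73).

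Set against each other directly, the 2 kinds of Prrx1 loss differed in 8 of 10 members, all higher in SG_MEF, where 56.2% of all genes differed, 27.8% higher and 28.4% lower. The difference was at least 2-fold for 5 members and for 21.2% of all genes, and the cultures did not overlap for 63.8% of all genes. The differences were 2.32 ± 0.07 on the log2 scale for Nlrc5, 2.14 ± 0.15 for Psmb8, 1.81 ± 0.11 for H2-K1, 1.47 ± 0.10 for Psmb10 and 1.45 ± 0.13 for H2-D1. Tap2 (0.15 ± 0.08) and Psmb9 (0.07 ± 0.24, 95% interval -0.39 to 0.53) did not pass. Prrx1 RNA also differed between these groups, by 2.44 ± 0.18. KI_MEF came from a mutant mouse line, so line and kind of Prrx1 loss cannot be told apart, here or against WT_MEF.

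In wound healing fibroblasts the guide went with lower heavy chains and immunoproteasome subunits and with higher Tap2 and Nlrc5. Of the 10 members, 7 fell and 2 rose in SG_Wound, where 77.6% of all genes changed (39.3% fell and 38.3% rose, 15.6% by at least 2-fold, as no member did), and B2m did not pass (-0.03 ± 0.02). The median was -0.44 against 0.00 over all genes. The cultures of the 2 groups did not overlap for 9 members, as for 80.1% of all genes.

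H2-K1 was at 121, 128 and 117 CPM in WT_Wound and at 76.6, 73.9 and 78.4 in SG_Wound (-0.69 ± 0.04). H2-D1 changed by less, from 212, 206 and 206 CPM to 169, 166 and 174 (-0.31 ± 0.02). The ratio of H2-D1 to H2-K1 counts was 1.71 ± 0.0880 (SD, n = 3) in WT_Wound and 2.22 ± 0.0235 in SG_Wound, with no overlap of the cultures. The immunoproteasome subunits fell together, with Psmb10 going from 38.6, 39.1 and 38.3 CPM to 21.3, 22 and 23.2 (-0.82 ± 0.04), Psmb9 from 3.66, 3.6 and 3.32 to 2.02, 2.19 and 2.24 (-0.73 ± 0.10) and Psmb8 from 32.4, 33.4 and 31.5 to 20.7, 22.2 and 22.4 (-0.59 ± 0.04). Tapbp fell by 0.57 ± 0.03 on the log2 scale.

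The subunits of the peptide transporter went apart in these cells. Tap2 was at 23.4, 21.8 and 22.8 CPM in WT_Wound and at 35.4, 37.2 and 37.3 in SG_Wound (0.68 ± 0.04), while Tap1 was at 34.3, 33 and 35.1 against 32.8, 32.4 and 32 (-0.09 ± 0.03). Tap1 thus stayed at 94.9% of the WT mean, and its fall did not pass with DESeq2 (-0.09) or without SG_Wound replicate 3 (-0.08) or WT_Wound replicate 3 (-0.07). Nlrc5 rose from 13.9, 12.5 and 13 CPM to 20.8, 22.2 and 21.4 (0.69 ± 0.05), while H2-K1, H2-D1 and the immunoproteasome genes fell in the same cultures.

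In the tumour fibroblasts the same guide went with higher levels of most class I genes. In SG_MMTV, 7 members rose, 2 fell and Tap1 did not pass (-0.06 ± 0.02), where 83.1% of all genes changed (41.2% rose and 41.9% fell). The call of Tap1 depended on the processing, since it passed with RLE scaling (-0.06), DESeq2 (-0.06) and a minimum of 10 counts (-0.07), and also without WT_MMTV replicate 1 (-0.08). The median was 0.44 against -0.00 over all genes. No overlap of cultures was seen for 9 members and for 84.7% of all genes.

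H2-K1 was at 127, 129 and 135 CPM in WT_MMTV and at 427, 432 and 423 in SG_MMTV, a 3.27-fold rise (1.71 ± 0.03). H2-D1 went from 598, 478 and 515 CPM to 988, 949 and 1001 (0.88 ± 0.07), and B2m from 901, 911 and 920 to 1161, 1131 and 1153 (0.33 ± 0.02). All SG_MMTV cultures lay above all WT_MMTV cultures for these 3 genes, which encode the surface complex. Psmb9 rose from 11, 12.1 and 11.5 CPM to 24.2, 25.3 and 24.2 (1.09 ± 0.04), Nlrc5 from 15.1, 15.2 and 15.7 to 25.4, 25.7 and 25.7 (0.73 ± 0.03) and Psmb8 from 78.5, 82.5 and 77.2 to 116, 117 and 117 (0.55 ± 0.03). Tapbp rose by 0.10 ± 0.02. Tap2, which went up in the wound cells, fell here from 126, 130 and 122 CPM to 94.9, 95.8 and 96 (-0.40 ± 0.03), and Psmb10 fell from 67.6, 75.9 and 71 to 58.2, 58 and 57.9 (-0.30 ± 0.04). At least 2-fold changes were those of H2-K1 and Psmb9, against 24.3% of all genes.

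**Figure D2:**
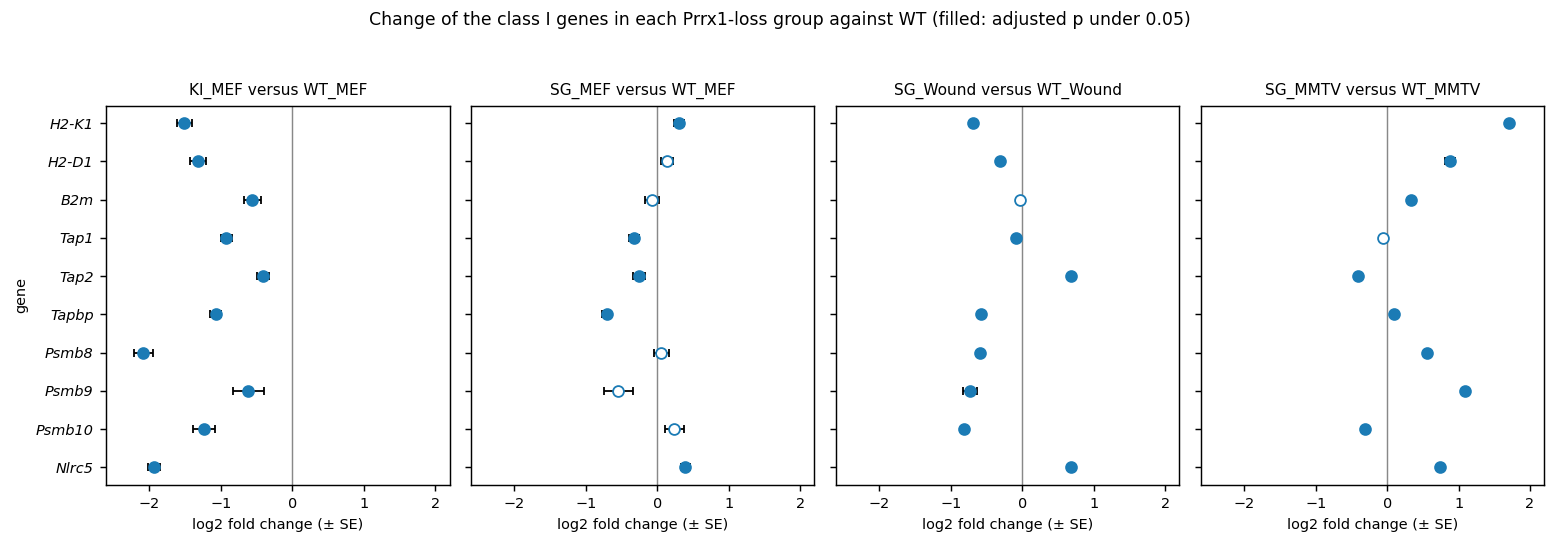
Log2 fold change (horizontal axis) of each class I gene (vertical axis) in the 4 Prrx1-loss groups against the WT group of the same cell type, with bars of 1 SE. Filled points passed adjusted p under 0.05 by edgeR. All 10 points lie below 0 in KI_MEF, and H2-K1 runs from -1.51 there to 1.71 in SG_MMTV.

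The difference of the sgPrrx1 change between cell types was tested in 1 model over all 21 cultures. Between tumour and wound fibroblasts it passed for 8 members, where 63% of all genes passed (31.5% in each direction), and for 7 of the 8 the change was the more upward one in the tumour cells. H2-K1 had the largest difference, 2.42 ± 0.10 on the log2 scale, followed by Psmb9 (1.83 ± 0.19), H2-D1 (1.21 ± 0.13) and Psmb8 (1.16 ± 0.13), and Tap2 went the other way (-1.07 ± 0.08). Nlrc5 (0.06 ± 0.08) and Tap1 (0.05 ± 0.06) did not pass, with 95% intervals of -0.09 to 0.21 and -0.07 to 0.16. Prrx1 itself did not pass in this contrast (0.13 ± 0.15, 95% interval -0.17 to 0.43). Between tumour fibroblasts and MEFs 9 members passed, 8 of them upward, where 56.1% of all genes passed (27.4% upward and 28.7% downward), and the largest were Psmb9 (1.64 ± 0.20) and H2-K1 (1.41 ± 0.10). Between wound fibroblasts and MEFs 7 members passed, 4 downward and 3 upward, where 55.6% of all genes passed (28.1% upward and 27.5% downward), with Psmb10 (-1.07 ± 0.14) and H2-K1 (-1.0 ± 0.10) lowest and Tap2 (0.93 ± 0.08) highest. Differences of at least 2-fold were found for 5 members between tumour and wound cells, 2 between tumour cells and MEFs and 2 between wound cells and MEFs, against 28.8%, 22.4% and 19.1% of all genes. The tumour cells differ from the others in strain as well.

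The balance between immunoproteasome and constitutive subunits can be read within a library, as the share of the inducible subunit in the counts of the pair. The share does not depend on library scaling but does depend on transcript length, so only the same pair is compared between groups. With 3 cultures a group, the smallest p of the exact 2-sided permutation test is 0.1.

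Psmb8, the chymotrypsin-like subunit, made up 40.5 ± 2.13% (SD, n = 3) of the Psmb8 and Psmb5 counts in WT_MEF and 9.23 ± 1.64% in KI_MEF, with 5328 to 7082 counts of the pair in a culture. Both parts moved, since Psmb5 rose in KI_MEF (0.66 ± 0.08). In SG_MEF the share was 33.7 ± 3.19%, where Psmb5 rose (0.47 ± 0.07) and Psmb8 did not pass (0.06 ± 0.10). The share was 14.5 ± 0.674% in WT_Wound, 13.7 ± 0.445% in SG_Wound, 61.8 ± 0.846% in WT_MMTV and 69.6 ± 0.124% in SG_MMTV. The cultures of the Prrx1-loss and WT groups did not overlap in MEFs and tumour cells (exact permutation p = 0.1 each, the smallest possible) and overlapped in wound cells (exact permutation p = 0.2).

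Psmb9 was a small part of its pair in all cells, 1.41 ± 0.270% in WT_MEF, 1.07 ± 0.12% in KI_MEF, 0.790 ± 0.109% in SG_MEF, 1.07 ± 0.0447% in WT_Wound and 0.900 ± 0.0402% in SG_Wound, against 9.23 ± 0.335% in WT_MMTV and 13.5 ± 0.366% in SG_MMTV. Psmb10 made up 14.8 ± 1.64% of the Psmb10 and Psmb7 counts in WT_MEF, 8.22 ± 0.280% in KI_MEF and 14.6 ± 0.153% in SG_MEF. It was 11.4 ± 0.182% in WT_Wound and 8.33 ± 0.25% in SG_Wound, and 33.3 ± 1.62% in WT_MMTV and 28.8 ± 0.364% in SG_MMTV. In the tumour cells with the guide, the shares of Psmb8 and Psmb9 were thus higher and that of Psmb10 lower, each without overlap of the cultures (exact permutation p = 0.1).

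**Figure D3:**
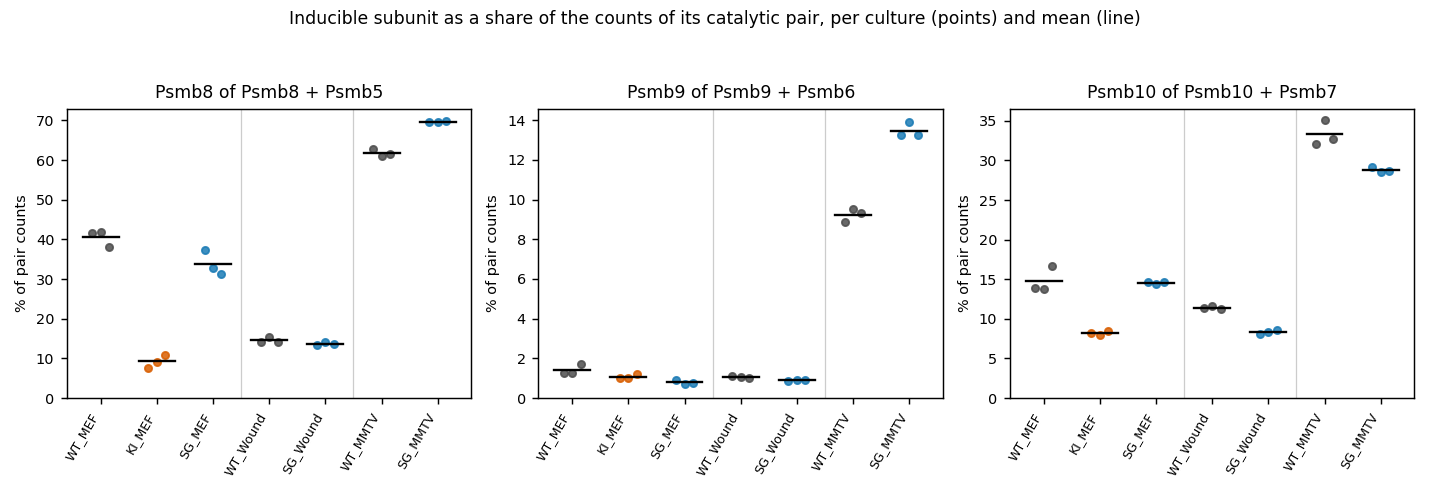
Share of the inducible subunit in the counts of its catalytic pair (vertical axis, percent, from 0) in each of the 21 cultures by group, with the mean as a line, for Psmb8 with Psmb5, Psmb9 with Psmb6 and Psmb10 with Psmb7. The KI_MEF points for Psmb8 lie at 7.63 to 10.9% and the WT_MEF points at 38 to 41.9%.

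The factors that drive class I transcription did not all move with the members. Of 24 such genes, 23 were tested in each comparison. In KI_MEF 7 fell and 6 rose (median 0.03), in SG_MEF 6 fell and 4 rose (-0.11), in SG_Wound 9 fell and 8 rose (-0.03) and in SG_MMTV 10 fell and 12 rose (0.10). Of all genes tested, 30.5% fell and 29.4% rose in KI_MEF, and 22.8% fell and 20.3% rose in SG_MEF. In SG_Wound 39.3% fell and 38.3% rose, and in SG_MMTV 41.9% fell and 41.2% rose. The counts of this list lie near those shares. Irf1, an interferon-induced activator of class I and immunoproteasome genes, fell in KI_MEF (-1.81 ± 0.14), SG_Wound (-1.66 ± 0.04) and SG_MEF (-0.34 ± 0.11) and rose in SG_MMTV (0.63 ± 0.03). Its level was 75.2 to 87.9 CPM in WT_MEF, 19.9 to 28.5 in KI_MEF and 58 to 75 in SG_MEF. It was 46 to 50.2 in WT_Wound, 14.7 to 15.7 in SG_Wound, 62.7 to 67.1 in WT_MMTV and 99.8 to 103 in SG_MMTV. The cultures did not overlap in any of the 4 comparisons. The same held for 68.2% of all genes in KI_MEF, 56.9% in SG_MEF, 80.1% in SG_Wound and 84.7% in SG_MMTV. In SG_MEF the highest culture (75.0 CPM) lay just below the lowest of WT_MEF (75.2). That fall was near the threshold (adjusted p = 0.0433, edgeR).

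Other genes of this list had patterns of their own. Stat2, a transcription factor of type I interferon signalling, fell by 1.37 on the log2 scale in KI_MEF, 1.42 in SG_MEF, 0.55 in SG_Wound and 1.11 in SG_MMTV. Irf9, whose product binds STAT2, fell by 1.82 in SG_MEF and 0.66 in SG_Wound and did not pass in KI_MEF (-0.20) or SG_MMTV (-0.02). Rfx5, a subunit of the complex with which NLRC5 binds class I promoters, rose in KI_MEF (0.27 ± 0.10), SG_Wound (0.35 ± 0.05) and SG_MMTV (0.91 ± 0.03) and did not pass in SG_MEF (-0.12 ± 0.12). Its partner Rfxap rose in KI_MEF (0.65), SG_MEF (0.55) and SG_MMTV (1.38) and fell in SG_Wound (-0.38). Ezh2, the Polycomb methyltransferase, rose in KI_MEF (0.48), SG_Wound (0.56) and SG_MMTV (0.88) but did not pass in SG_MEF (0.06). Rela, an NF-kB subunit, rose in KI_MEF (0.30) and SG_Wound (0.54) and fell in SG_MMTV (-0.35). Socs1, an inhibitor of interferon signalling, rose in SG_MEF (0.70) and fell in KI_MEF (-0.77) and SG_MMTV (-0.79). Tyk2, a kinase of the type I interferon receptor, fell in SG_MEF (-0.49) and SG_MMTV (-0.92) and rose in SG_Wound (0.49).

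The other class I heavy chains were a list of 27 genes, tested where counted. It holds H2 genes and class I-like genes such as Cd1d1, Fcgrt and Hfe, which enter the counts and medians. In KI_MEF 13 of 19 tested fell and 1 rose, with a median of -1.40, and in SG_Wound 10 of 18 fell and 3 rose (-0.76). In SG_MEF 4 of 19 fell and 3 rose (0.02), and in SG_MMTV 11 of 17 rose and 3 fell (0.38). Of all genes, 30.5% fell and 29.4% rose in KI_MEF, and 39.3% and 38.3% in SG_Wound. The shares were 22.8% and 20.3% in SG_MEF, and 41.9% and 41.2% in SG_MMTV. H2-T23, which encodes Qa-1, a ligand of the NKG2A receptor, fell in KI_MEF (-1.48 ± 0.12) and in SG_Wound (-2.04 ± 0.04), where it went from 31.8 to 33.7 CPM to 7.57 to 8.35. It did not pass in SG_MEF (-0.17 ± 0.08) or SG_MMTV (0.04 ± 0.05). Fcgrt, the heavy chain of the neonatal Fc receptor, fell by 2.24 on the log2 scale in KI_MEF, 1.20 in SG_MEF and 1.53 in SG_Wound and rose in SG_MMTV (0.09). Hfe, which regulates iron uptake, fell in SG_MEF (-0.99) and SG_Wound (-0.74) and rose in SG_MMTV (0.73). H2-M9 was at 28, 12 and 16 counts in WT_MEF, 0 in each KI_MEF culture (which allows up to 3 counts) and 55, 92 and 100 in SG_MEF, where the rise passed. H2-Q5 fell in KI_MEF (-1.27) and SG_Wound (-2.41) and rose in SG_MEF (0.70), and H2-Q6 likewise fell in KI_MEF (-1.21) and SG_Wound (-0.89) and rose in SG_MEF (0.92). Cd1d1, which presents lipids, fell in KI_MEF (-1.84) and SG_MEF (-0.58) and rose in SG_Wound (0.23) and SG_MMTV (0.70). H2-T24 rose in KI_MEF (1.77) and SG_Wound (2.04), where its means were 1.34 and 0.266 CPM. Reads of the H2 genes can be shared among near-identical copies, so their single values are uncertain.

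Loading and trimming genes outside the members were a further list of 13. Among all genes, 30.5% fell and 29.4% rose in KI_MEF, and 22.8% and 20.3% in SG_MEF. The shares were 39.3% and 38.3% in SG_Wound, and 41.9% and 41.2% in SG_MMTV. In KI_MEF 2 of 13 fell and 6 rose (median -0.02), with Pdia3 (1.0) and Canx (0.72), chaperones of the loading complex and of glycoprotein folding, higher and Uggt1 (-0.59) and Cnpy3 (-0.34) lower. In SG_MEF 3 rose and none fell (median 0.05), namely Lnpep (0.42), Tpp2 (0.38) and Blmh (0.37), all 3 of them peptidases. In SG_Wound 10 fell and 2 rose (median -0.34), and the largest fall was that of Erap1 (-0.95 ± 0.04), the aminopeptidase that trims class I peptides, followed by Hspa5 (-0.72), while Lnpep (0.43) and Tpp2 (0.31) rose. In SG_MMTV 10 fell and 3 rose (-0.32), with Lap3 (-0.80), Tapbpl (-0.52) and Erap1 (-0.26 ± 0.03) lower and Blmh (1.31) and Hspa5 (0.75) higher. Erap1 did not pass in KI_MEF (-0.19 ± 0.11) or SG_MEF (-0.09 ± 0.09).

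Of 15 further proteasome genes, 8 rose and none fell in KI_MEF (median 0.25), 10 rose and 1 fell in SG_MEF (0.39), 14 fell and none rose in SG_Wound (-0.45) and 14 rose and none fell in SG_MMTV (0.44). Among all genes, 29.4% rose and 30.5% fell in KI_MEF, and 20.3% and 22.8% in SG_MEF. The shares were 38.3% and 39.3% in SG_Wound, and 41.2% and 41.9% in SG_MMTV. The direction of these proteasome genes was thus down in SG_Wound, as for most members, and up in KI_MEF, unlike the members. Examples are Psma2 (0.73) and Psmb4 (0.59) in KI_MEF, Psma1 (0.67) and Psmb4 (0.61) in SG_MEF and Psma5 (1.05) and Psmb4 (0.83) in SG_MMTV. Psme1 and Psme2, the interferon-inducible cap of the proteasome, fell in SG_Wound (-0.80 ± 0.03 and -1.05 ± 0.03) and rose in SG_MMTV (0.43 ± 0.03 and 0.36 ± 0.02). Psme1 fell in SG_MEF (-0.42 ± 0.08), and the values that did not pass were -0.16 ± 0.09 for Psme1 in KI_MEF and 0.15 ± 0.25 and 0.41 ± 0.21 for Psme2 in KI_MEF and SG_MEF. The constitutive catalytic subunits all fell in SG_Wound, with Psmb5 at -0.49, Psmb6 at -0.47 and Psmb7 at -0.32, and all rose in SG_MEF (0.47, 0.28 and 0.28). In SG_MMTV Psmb6 rose (0.47), and in KI_MEF Psmb7 fell (-0.27).

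Class II genes, which need CIITA in place of NLRC5, were near the floor. Ciita had 0 counts in all cultures of 6 groups and at most 10 in SG_MMTV. Cd74, the class II invariant chain, had 34 counts or fewer in the C57BL/6 cultures and 141 to 232 in the FVB/NJ ones, where it fell by 0.43 ± 0.17 in SG_MMTV. It did not pass in KI_MEF (0.76 ± 0.53). Of the 10 genes of this list, 3 were tested in KI_MEF (1 lower, 1 higher, median 0.76), 2 in SG_MEF (none past the threshold, -0.10), 2 in SG_Wound (both higher, 1.66) and 4 in SG_MMTV (2 lower, -0.38). The shares of all genes were those given for the proteasome genes, and these counts are too small to set beside them. H2-DMB1, a peptide exchange factor, rose in SG_Wound to a mean of 12 CPM from 2.2 (2.43) and in KI_MEF to 1.95 from 0.711 (1.42). Its partner H2-DMA fell by 0.62 in KI_MEF and 1.13 in SG_MMTV and rose by 0.90 in SG_Wound.

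FVB/NJ mice carry the q haplotype of the H2 complex and C57BL/6 mice the b haplotype, and reads of both were counted on a C57BL/6 reference. The following genes were chosen after their values were seen. H2-T9 had 0 counts in all 6 FVB/NJ cultures and 33.7 to 103 CPM in the C57BL/6 cultures. H2-T10 was at 90.2 to 152 CPM in the FVB/NJ cultures and at 6.29 or less in the others, and H2-T24 at 22 to 57.6 against 1.41 or less. H2-Q5 was at 0 counts in each WT_MMTV culture and at 104, 130 and 105 in SG_MMTV, and H2-Q9 at 0 against 376, 321 and 221. H2-T24 and H2-T22 fell in SG_MMTV by 1.27 and 0.43 on the log2 scale. For heavy chain levels in MMTV cultures set beside those in C57BL/6 cultures, strain, tissue and the fit of the reads to the reference cannot be told apart. Within the MMTV comparison both groups carry the same strain label. Whether their reads fitted the reference alike was not tested.

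H2-L, a heavy chain gene next to H2-D1 in some haplotypes, varied widely between MMTV cultures of the same group. It had 118 to 233 counts in each C57BL/6 culture, but 6693, 17601 and 14970 in WT_MMTV and 473, 25184 and 443 in SG_MMTV, so that 1 SG_MMTV culture stood far above the other 2. The change did not pass (-0.78 ± 1.29). H2-D1 was lowest in both groups in the culture with the highest H2-L, at 478 CPM in WT_MMTV replicate 2 and 949 in SG_MMTV replicate 2. When the counts of both genes were summed, the levels were 661, 633 and 629 CPM in WT_MMTV and 993, 1136 and 1005 in SG_MMTV, and the rise was 0.70 ± 0.05 in place of 0.88 ± 0.07, still past the threshold. In WT_MMTV against WT_MEF the sum gave 0.16 ± 0.09 in place of -0.11 ± 0.09, and neither passed. Of the distinct 100-base windows over all coding transcripts of H2-D1, 3.91% also occurred in another coding gene. None did for the 8 other members with a coding transcript. H2-L was not found in the annotation searched, so windows that H2-D1 shares with it could not be counted. The windows are those of the reference annotation and not of FVB/NJ transcripts.

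The ratio of H2-D1 to H2-K1 counts was 4.71, 3.71 and 3.82 in WT_MMTV and 2.32, 2.2 and 2.37 in SG_MMTV. In the other groups it had means of 1.71 to 2.44. With H2-L added to H2-D1, the ratio was 4.93 ± 0.272 (SD, n = 3) in WT_MMTV and 2.44 ± 0.161 in SG_MMTV, so that the gap between the groups was larger than the spread with either count.

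**Figure D4:**
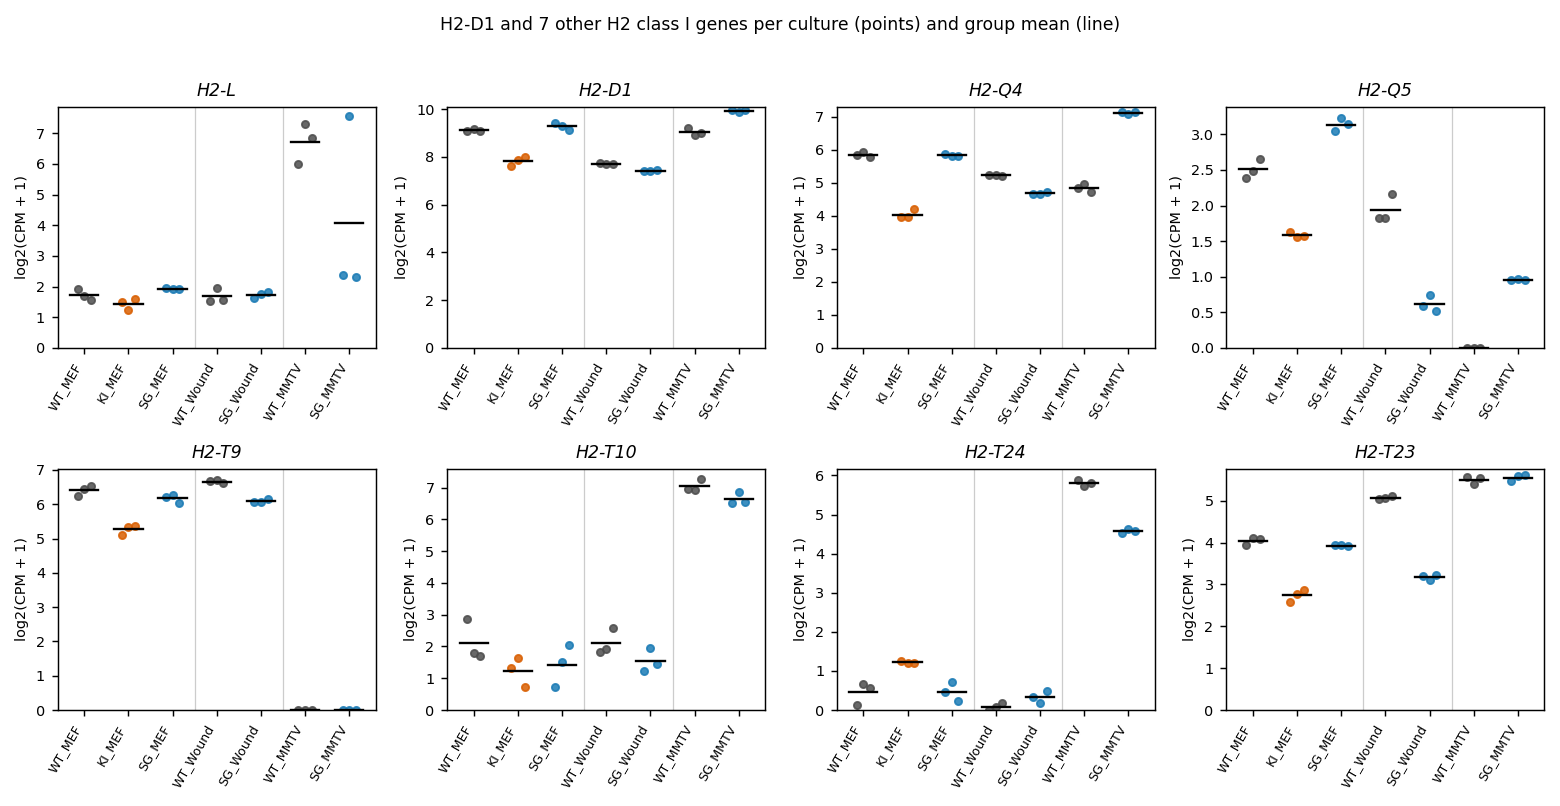
Level of H2-D1 and 7 other H2 class I genes as log2(CPM + 1) (vertical axis, from 0) in the 21 cultures by group, with the mean as a line. H2-T9 lies at 0 in the FVB/NJ cultures, H2-T10 and H2-T24 are high there, and the 3 SG_MMTV points of H2-L lie apart, with 1 far above the other 2.

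Across the 7 group means of log2 CPM, the mean standardised profile of the 10 genes was lowest in KI_MEF (-1.06) and highest in SG_MMTV (1.23). For 9 of the genes the Pearson correlation with this profile ran from 0.717 (H2-K1) to 0.957 (Psmb8), each gene being part of that mean, and for Nlrc5 it was 0.125. Nlrc5 alone was highest in the MEF groups with intact or guide-targeted Prrx1. The 5 genes outside the members whose group means were most like the common profile were Lef1 (r = 0.989), Arhgap10 (0.979), Gfra1 (0.978), Ptpn13 (0.978) and Camk2n2 (0.977). These are descriptions over 7 groups that differ in strain, tissue and genotype and share libraries.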

How the data were processed

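RNA of 21 cultures was sequenced from TruSeq libraries (paired-end, 100 bases). Per the labels and the study's methods, the authors trimmed reads with Trimmomatic, aligned them to mm10 with STAR and deposited HTSeq read counts per gene. ComBat-seq, a batch correction that returns adjusted counts, is also named, after the human data, and whether it was run on these counts is not given in the sources used here. The annotation, the strand setting and the handling of reads shared between genes are not given in the sources used here. Each column was matched to a culture by its name, and those of the wound cultures, whose names carry another prefix, by elimination of the other types. Columns of no sample numbered 0.

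Counts were tested as deposited with edgeR 4.0.16 (R 4.3.3), with TMM scaling, filterByExpr by group, the quasi-likelihood test and Benjamini-Hochberg adjustment over all genes tested, at 0.05. Each SE was taken from the F statistic. The 95% intervals multiply that SE by the normal quantile, which makes them too narrow with 3 cultures per group. Comparisons with WT used the 6 cultures concerned. Contrasts between cell types used all 21. Alternatives were RLE scaling, DESeq2 1.42.0, other filters, a replicate block, a 2-fold limit and each culture left out. Summing H2-D1 with H2-L was chosen after seeing the data. The steps were tested on simulated data. Transcript lengths and shared windows came from the Gencode release of an older build, and were used without coordinates. Promoters and positions came from RefSeq (GRCm38.p6).

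The members and gene lists were chosen with earlier results of these data known. Genes outside the members were named by rule: subunit partners, a few regulators, the 2 largest changes per direction in each list and the 5 of most similar profile. H2 genes of the strain account fall outside it. A gene that the rule names is not reported here. Replicates differed by more than sampling noise (chi-square per degree of freedom 13.6 to 211).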

Additional observations from a re-analysis of the deposited data

Results flagged for a closer look

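Each of these results is a difference of the sgPrrx1 change between 2 cell types that passed the interaction test (edgeR, 21 cultures), given as the log2 difference. Between tumour and wound fibroblasts these were H2-K1 (2.42), Psmb9 (1.83), H2-D1 (1.21), Psmb8 (1.16), Tapbp (0.68), Psmb10 (0.53), B2m (0.38) and Tap2 (-1.07). Between tumour fibroblasts and MEFs they were Psmb9 (1.64), H2-K1 (1.41), Tapbp (0.81), H2-D1 (0.75), Psmb8 (0.50), B2m (0.41), Nlrc5 (0.35), Tap1 (0.27) and Psmb10 (-0.54). Between wound fibroblasts and MEFs they were Tap2 (0.93), Nlrc5 (0.29), Tap1 (0.23), H2-D1 (-0.46), Psmb8 (-0.66), H2-K1 (-1.0) and Psmb10 (-1.07). The tumour cells are of another strain, so for them type and strain cannot be told apart. No group held enough cultures to look for single outlying samples.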

How the results depend on the processing

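Of 1520 values for single members under the alternatives, 1481 kept their direction and their side of the threshold, 19 fell out of the called set, 9 entered it and 11 changed sign. With a 2-fold limit, the members past the threshold numbered 6 in KI_MEF, 0 in SG_MEF (edgeR; 5 without the limit, and 4 to 5 under the other full-sample alternatives, DESeq2 included), 0 in SG_Wound, 2 in SG_MMTV, 5 between SG_MEF and KI_MEF, 3 between WT_Wound and WT_MEF, and 2, 2 and 5 for the differences between wound cells and MEFs, tumour cells and MEFs, and tumour and wound cells. Leaving out 1 culture gave 3 to 6 members in SG_MEF against WT_MEF. Counted per kb of exon, the difference in share from WT was -21.5 percentage points for Psmb8 in KI_MEF (-31.3 without), 8.70 for Psmb8 in SG_MMTV (7.84), -0.103 for Psmb9 in SG_Wound (-0.173) and 2.76 for Psmb9 in SG_MMTV (4.25). For Psmb10 in SG_MEF, leaving out 1 culture gave -0.748 to 0.707.

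The values that changed sign were small. With H2-L summed into H2-D1, the log2 difference of WT_MMTV from WT_MEF was 0.16. Leaving out 1 culture gave -0.149 to 0.0271 for B2m and -0.0320 to 0.145 for Psmb8 in SG_MEF, -0.117 to 0.255 for Psmb9 in SG_MEF against KI_MEF, and -0.0708 to 0.0812 for the B2m difference between wound cells and MEFs. In WT_Wound against WT_MEF it gave -0.0860 to 0.0750 for B2m, -0.0165 to 0.0661 for Psmb8 and -0.140 to 0.103 for Psmb10. For 5 of these 7 results WT_MEF replicate 3 was a culture whose removal turned the sign. The cause was not tested. Leaving out a single culture ended the calls of Psmb9 in KI_MEF, H2-K1 and Tap2 in SG_MEF, Tap1 in SG_Wound and Nlrc5 between WT_MMTV and WT_Wound, and it brought Psmb9 and Psmb10 in SG_MEF and Tap1 in SG_MMTV past the threshold.

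Replicate numbers are shared by all groups. The deviations of same-numbered cultures from their group means had correlations of -0.355 to 0.203, with both extremes among MEF groups. Whether a shared number marks a batch cannot be settled from these correlations. With the replicate number as a block, 9 members passed in KI_MEF (Psmb9 was lost), 5 in SG_MEF, 9 in SG_Wound, 10 in SG_MMTV and 8 between SG_MEF and KI_MEF. With the block the differences between types gave 7, 9 and 8 members, and those between WT groups 7, 9 and 9. Depth limits Psmb9 in MEFs, at 89 to 223 counts, and most class II genes.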
